A study of Mus musculus with 4 samples.

Results

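The genes described here encode the 2 routes by which cells show peptides to T cells, MHC class I and MHC class II. They were taken as 33 listed gene symbols, 21 of the class I route and 12 of the class II route, out of 32285 genes in each library, and all 33 had a row in all 4 libraries. RNA of single cells was captured in droplets and counted in 4 libraries, a WT (wild-type) and a KO (Ndufa4-deficient) one from tumour and from spleen. Ndufa4 encodes a small subunit of cytochrome c oxidase in mitochondria. All mice were males on the C57BL/6 background, 8 weeks old, and every group, WT included, carried a subcutaneous B16-F10 melanoma, a line that grows in this strain, taken at day 18 after implantation. The sort kept CD45-positive cells (leukocytes) of the tumour, and in the spleen only those that also carried CD11b, a myeloid marker. Each library is a pool of mice, 3 per genotype in the design text and up to 4 in the protocol, so no difference below can be set against the spread between mice. The sources used here do not say how the deficiency was made or in which cells.

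Class I molecules pair a heavy chain with beta-2 microglobulin and carry peptides cut in the cytosol by the proteasome, pumped into the endoplasmic reticulum by the Tap transporter and loaded with help from tapasin, and nearly all nucleated cells make them. Class II molecules pair an alpha with a beta chain, travel with the invariant chain Cd74 to endosomes and receive peptides there with help from H2-DM, and they are typical of dendritic cells, B cells and activated macrophages. The transactivator Nlrc5 works at class I promoters and Ciita at class II promoters, and both sets of genes are known to respond to interferon gamma.

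Cells were named by counting distinct marker genes with a UMI (unique molecular identifier, 1 per captured RNA molecule). No class I or class II gene was used for this, and each name means cells that pass that gate. Between 3839 and 7009 cells were kept per library, and between 81.8% and 91.1% of them passed the gate of exactly 1 lineage. Median depths of the kept cells were 7015 (WT) and 10158 (KO) UMIs in the tumour and 4613 and 4267 UMIs in the spleen, and library pairs shared 6 to 22 barcodes, at most 0.359% of the smaller library. Levels are UMIs summed over the cells of a gate and scaled to a common UMI total of that gate (CPM, counts per 1000000 UMIs). Since the assay counts 3' ends, a level does not scale with gene length. In tumour macrophages Ndufa4 itself had 3684 UMIs in WT (282 CPM) and 55 UMIs in KO (8.83 CPM), and in spleen classical monocytes 5011 UMIs (330 CPM) and 3 UMIs (0.406 CPM).

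Of the 33 genes, 23 lie on chromosome 17, 14 of class I and 9 of class II, in GENCODE M21 on GRCm38. A RefSeq window from 250 bases before to 50 after the start (GRCm38.p6) was matched for 26 of them. The letters TGANG followed after 15 to 25 bases by ATTGG, the core of the X2 and Y boxes that classical MHC promoters are known for, occurred on either strand in 7 of 17 class I genes and 6 of 9 class II genes, against 2.79% of all 32851 windows. The stretches below show how alike this pair is in class I genes (H2-K1, B2m) and class II genes (H2-Aa, H2-Eb1, H2-DMb1). Capitals mark TGANG, including overlapping copies, and ATTGG, which is also the reverse complement of the CCAAT motif counted next. All read 5' to 3' on the gene's strand and end before the start site.
H2-K1 chr17:34000349-34000408, minus strand: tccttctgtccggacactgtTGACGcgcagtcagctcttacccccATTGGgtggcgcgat
B2m chr2:122147589-122147648, plus strand: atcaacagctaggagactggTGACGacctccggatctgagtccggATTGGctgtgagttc
H2-Aa chr17:34287857-34287917, minus strand: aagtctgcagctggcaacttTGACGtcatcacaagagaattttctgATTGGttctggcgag
H2-Eb1 chr17:34305761-34305822, plus strand: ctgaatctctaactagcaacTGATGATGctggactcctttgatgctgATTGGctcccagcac
H2-DMb1 chr17:34153082-34153144, plus strand: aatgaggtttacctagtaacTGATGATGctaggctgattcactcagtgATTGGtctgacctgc
The gap between the 2 parts was 20 bases in H2-K1 and B2m and 21 in H2-Aa, and 22 or 19 in H2-Eb1 and 23 or 20 in H2-DMb1 from the first or second overlapping copy. CCAAT occurred in 20 of 26 genes against 37.4% of all windows. Of the other motifs, all searched on both strands, the H2TF1 form of the NF-kappaB site, known from class I promoters, occurred in 4 class I genes (H2-K1, H2-D1, H2-Q6 and H2-Q7) and 0 of 9 class II genes, against 0.107% of all windows. GAAA, 2 bases and GAAA, a form of the interferon-stimulated response element, occurred in 5 class I genes (B2m, Erap1, Psme1, H2-T22 and H2-T23) and 0 class II genes, against 3.44% of all windows. TGACG occurred in 12 of 26 genes against 20.8% of all windows. The windows of Tap1 and Psmb9, which lie head to head on opposite strands, share 275 bases. A match is a description of letters, not of binding.

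Class I was present in every gated immune cell type, while class II levels spanned more than 2 orders of magnitude. In the WT tumour, summed class I genes ranged from 3429 CPM in neutrophils to 15517 CPM in regulatory T cells. Summed class II genes stood at 51746 CPM in type 2 conventional dendritic cells (cDC2), 20155 CPM in B cells, 19068 CPM in migratory dendritic cells, 14219 CPM in macrophages, 13359 CPM in plasmacytoid dendritic cells, 9961 CPM in non-classical monocytes and 6896 CPM in classical monocytes. The low end was 478 CPM in regulatory T cells, 397 CPM in natural killer (NK) cells and 376 CPM in neutrophils. CD4 T cells outside the regulatory gate held 255 CPM and CD8 T cells 186 CPM. Class II made up 86.2% of the UMIs of both routes in cDC2 (95% exact binomial interval 86.0 to 86.4%), 66.6% in macrophages (66.5 to 66.8%) and 1.65% in CD8 T cells (1.55 to 1.75%). These and all intervals below cover counting error only.

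**Figure D1:**
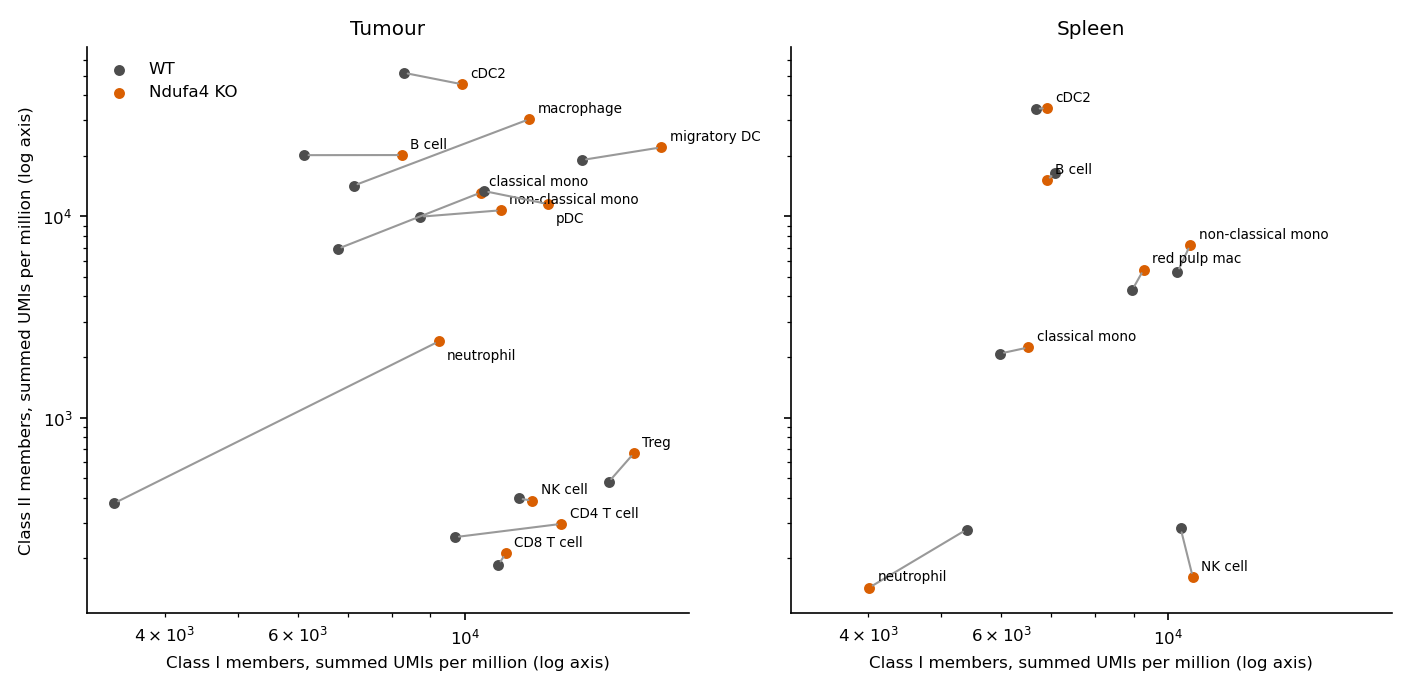
Summed class I (horizontal) and class II (vertical) CPM in each gated cell type with at least 50 cells in both libraries of an organ, on log axes; grey points are WT, orange points KO, and a line joins the same type. Tumour macrophages and classical monocytes lie up and to the right in KO, whereas tumour B cells stay at the same height (20155 and 20178 CPM) and cDC2 lie lower (51746 and 45331 CPM).

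Composition differed between antigen-presenting cells as well. Cd74 made up 47.3% of the UMIs of Cd74, H2-Aa, H2-Ab1 and H2-Eb1 in WT tumour macrophages and 41.8% in cDC2. In the tumour H2-Ab1, the beta chain of I-A, made up 11.1% of these UMIs in WT and 11.5% in KO migratory dendritic cells, against 20.2% and 19.7% in cDC2. Spleen migratory dendritic cells had 16.2% in WT (32 cells) and 10.7% in KO (33 cells), against 17.3% and 17.8% in spleen cDC2. In spleen classical monocytes H2-Eb1 made up 5.69% in WT and 6.19% in KO, against 10.7% and 11.4% in the same gate of the tumour. H2-Oa and H2-Ob, which encode the chains of H2-DO, the modulator of H2-DM, were abundant in B cells and conventional dendritic cells: H2-Ob stood at 437 CPM in WT tumour B cells and 114 CPM in cDC2, but at 2.98 CPM in macrophages.

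Tumour macrophages (780 WT and 399 KO cells, median depths 14980 and 14750 UMIs) had higher levels of both routes in KO. Of the 21 class I genes 18 were at least 1.5-fold higher and 0 at least 1.5-fold lower, where 10.1% of the 11376 genes measured in these cells were higher and 13.3% lower. The median class I log2 KO/WT ratio was 1.14, while that of all measured genes was -0.03. Of the 12 class II genes 9 passed the same line upward and 1 downward, and their median was 1.15. A gene counts as measured with at least 20 UMIs over both libraries.

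The classical class I heavy chains and their light chain, the most abundant class I transcripts, had ratios under the class median. H2-K1 was at 938 CPM in the WT library against 1642 CPM in the KO library, a log2 KO/WT ratio of 0.81 (95% exact interval 0.77 to 0.85). Further pairs of levels are likewise WT then KO, each with its log2 KO/WT ratio. H2-D1 stood at 1451 and 2307 CPM (0.67). B2m, the light chain, stood at 2598 and 3405 CPM (0.39, 0.37 to 0.41), under the 1.5-fold line. Among the non-classical heavy chains, H2-T23, which encodes Qa-1, the ligand of NKG2A receptors, stood at 190 and 464 CPM (1.29, 1.21 to 1.37). H2-T22 stood at 70.2 and 149 CPM (1.09), and H2-Q7, which encodes a Qa-2 molecule, at 76.7 and 155 CPM (1.02). The remaining heavy chains were rarer. H2-Q6 stood at 11.6 and 27.8 CPM (1.26), H2-T24 at 10.7 and 21.2 CPM (0.98) and H2-Q4 at 38.2 and 58.1 CPM (0.61). H2-M3, which presents N-formyl peptides, stood at 53.3 and 76.1 CPM (0.51). H2-T22, H2-Q4, H2-T23 and H2-Q6 share 45.4%, 20.6%, 19.9% and 19.0% of the 75-base windows of their last 400 bases with other genes. The gene sharing most was H2-T10, Gm43321, Rab33b and Efr3a, in that order. How reads from the shared stretches were assigned is uncertain.

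The genes that make and load class I peptides had ratios of 1.03 or more, apart from Erap1. Tap1, a chain of the peptide pump, stood at 94.8 and 286 CPM (1.59, 1.49 to 1.70), and its partner Tap2 at 50.9 and 123 CPM (1.27). Tapbp, which encodes tapasin, stood at 157 and 352 CPM (1.16), and Tapbpl, the related peptide editor, at 17.4 and 54.1 CPM (1.63, 1.39 to 1.88), the highest class I ratio in these cells. The inducible proteasome subunits differed alike. Psmb8 stood at 388 and 938 CPM (1.27), Psmb9 at 143 and 316 CPM (1.14) and Psmb10 at 120 and 315 CPM (1.39). The proteasome activator subunits Psme1 and Psme2 stood at 386 and 790 CPM (1.03) and at 272 and 618 CPM (1.19), although Psme2 shares 58.9% of its 3' windows with other genes, mostly Psme2b. Nlrc5, the transactivator, stood at 17.3 and 49.0 CPM (1.501, 1.25 to 1.76). Erap1, which trims peptides in the endoplasmic reticulum, had the lowest class I ratio, at 38.8 and 43.8 CPM (0.18, -0.04 to 0.39).

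**Figure D2:**
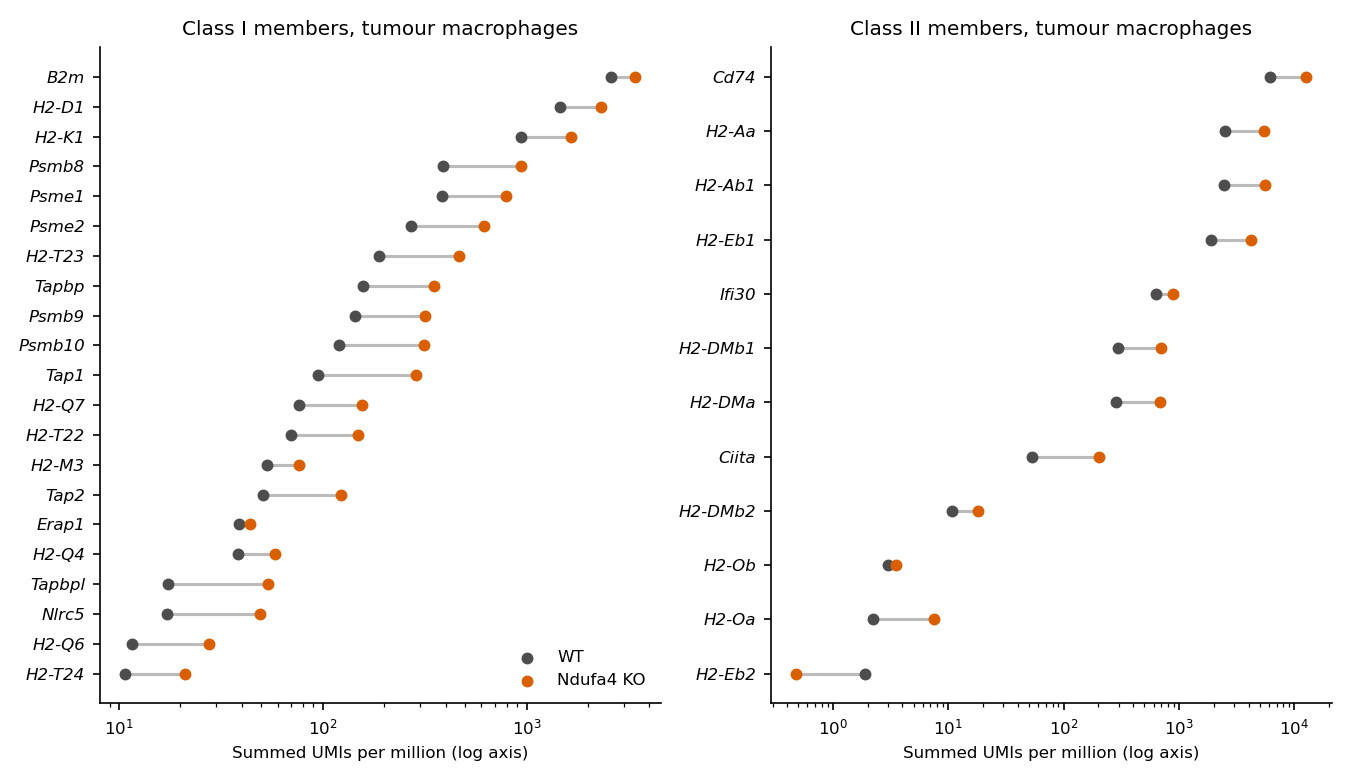
Level of each class I (left) and class II (right) gene in tumour macrophages, as CPM on a log axis, with WT in grey and KO in orange and genes ordered by the WT level. All 21 class I points lie higher in KO, and 11 of the 12 class II points do, H2-Eb2 being the exception.

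Among the class II genes, the transactivator Ciita had the highest ratio, at 52.6 and 203 CPM (1.95, 1.82 to 2.09). The classical chains stood close together. H2-Aa stood at 2518 and 5482 CPM (1.12), H2-Ab1 at 2429 and 5544 CPM (1.19) and H2-Eb1 at 1877 and 4230 CPM (1.17). Cd74 stood at 6117 and 12708 CPM (1.05, 1.04 to 1.07). The peptide exchange genes followed, with H2-DMa at 285 and 676 CPM (1.25), H2-DMb1 at 295 and 700 CPM (1.25) and the rarer H2-DMb2 at 10.7 and 18.1 CPM (0.76). Ifi30, a lysosomal thiol reductase, stood at 627 and 877 CPM (0.48), under the 1.5-fold line. The modulators were near the floor: H2-Oa had 29 and 47 UMIs (1.77, 1.07 to 2.49), and H2-Ob had 39 and 22 UMIs (0.24, -0.58 to 1.03). H2-Eb2 was the only gene of the 33 lower in KO, with 25 UMIs in WT and 3 in KO (-1.99, -4.36 to -0.28).

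Summed over genes, class I stood at 7123 and 12189 CPM in macrophages (log2 ratio 0.78, 0.76 to 0.79), and class II at 14219 and 30451 CPM (1.10, 1.09 to 1.11). The class II share of both was 66.6% in WT and 71.4% in KO. Cell by cell, after each cell was thinned to 1000 UMIs (8 cells too shallow in each library), the median was 6 class I and 7 class II UMIs in WT and 11 and 28 in KO. WT cells without a class II UMI made up 13.2%, against 2.05% of KO cells, and before thinning 1.41% and 0%, where the 399 KO cells allow a share up to 0.752%. CD8 T cells, whose class II genes summed to 186 and 211 CPM, lacked a class II UMI in 84.9% (WT) and 79.0% (KO) of cells after the same thinning, and in 18.4% and 11.3% before it.

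**Figure D3:**
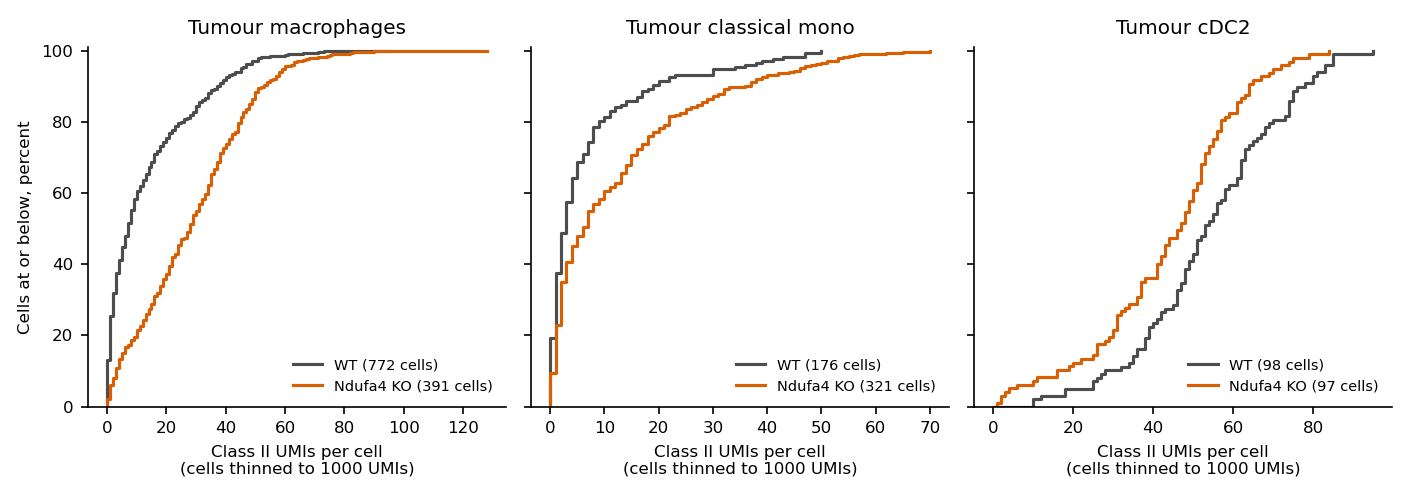
Share of cells (vertical, percent) at or below a given number of class II UMIs (horizontal) after each cell was thinned to 1000 UMIs, in tumour macrophages, classical monocytes and cDC2, with WT in grey and KO in orange. The KO macrophage curve lies to the right throughout most of its range (median 28 against 7), the monocyte medians are 6 and 3, and the cDC2 curve lies to the left (47 against 53).

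The difference was not of the same size in all macrophages. With the cells split by an Arg1 UMI after thinning, a mark of arginase-rich macrophages held by 26.8% of WT and 13.3% of KO cells, the class I and class II medians were 1.25 and 1.67 with Arg1 and 1.05 and 0.95 without it. Split by Cxcl9, held by 9.20% of WT and 34.5% of KO cells, they were 0.67 and 0.85 with Cxcl9 and 1.09 and 1.10 without it. Within 5 clusters of macrophages the class I medians ran from 0.32 to 1.16 and the class II medians from 0.44 to 1.63. The lowest were in the cluster led by Cfb and Cxcl9, interferon-induced genes, which held 6.80% of WT and 49.1% of KO macrophages. Reweighting the KO clusters to the shares they have in WT gave medians of 0.73 for class I and 0.93 for class II, where their own shares gave 1.17 and 1.21. Clusters with 26.3% and 16.9% of WT macrophages held only 23 and 28 KO cells, and macrophages outside the 5 clusters were left out. The class II medians within clusters rested on 7 to 11 measured genes. Other lineages' markers also differed in the macrophage gate: summed T cell markers stood at 10.9 and 40.3 CPM with all 7 markers higher in KO, NK cell markers at 3.37 and 21.0 CPM with all 6 higher, and classical monocyte markers at 2248 and 5016 CPM. Markers of the class II-rich cDC2 and B cells were at 65.0 and 56.5 CPM and at 14.5 and 14.3 CPM, with Zbtb46, Pax5 and Fcmr at 0 in KO. The median macrophage of either genotype had 0 T cell and 0 NK cell markers, and the part of these RNAs in the ratios was not tested. Cells with exactly the minimum of 3 macrophage markers made up 15.8% (WT) and 11.3% (KO) of the gate, and cells 1 monocyte marker short of its limit 11.3% and 16.0%.

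**Figure D4:**
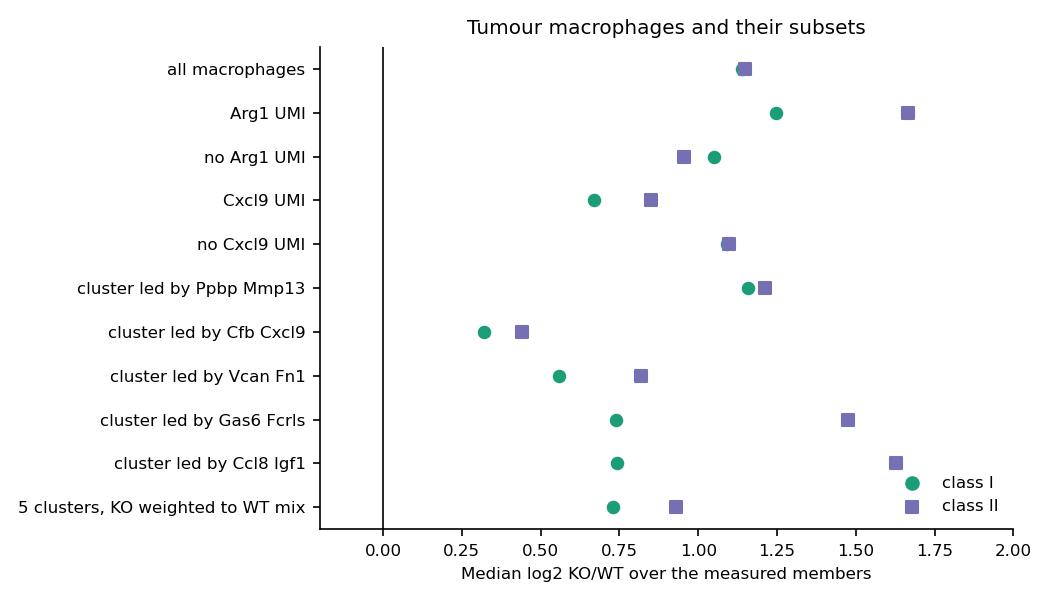
Median log2 KO/WT ratio of the class I (circles) and class II (squares) genes in all tumour macrophages, in subsets split by an Arg1 or Cxcl9 UMI, within 5 clusters named by leading genes, and after reweighting KO to the WT cluster shares. Every point lies above 0, and the cluster led by Cfb and Cxcl9 has the lowest medians, 0.32 and 0.44.

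Of 39 further pathway genes with a row, 34 were measured in macrophages, and 6 were at least 1.5-fold higher and 4 at least 1.5-fold lower, where 10.1% and 13.3% of all measured genes were. None of the 10 other proteasome genes listed was 1.5-fold apart in either direction (median 0.16). Psmb5, Psmb6 and Psmb7, whose subunits the inducible ones replace, had ratios of 0.0036, -0.15 and -0.06, while among the alpha subunits common to both forms Psma4, Psma5 and Psma7 had 0.54, 0.52 and 0.49. Among those higher in KO were the transcription factor genes Irf1 (60.8 and 244 CPM, 2.005) and Rfx5 (3.90 and 9.79 CPM, 1.33), of which Rfx5 binds the X box. Ctss, the cathepsin that cleaves the invariant chain, was at 2506 and 3978 CPM (0.67), March1, a ubiquitin ligase that lowers surface class II, at 62.7 and 118 CPM (0.92), and Fcgrt, the neonatal Fc receptor, at 28.5 and 44.3 CPM (0.63). Lower in KO were the lysosomal proteases Ctsl (824 and 348 CPM, -1.24), Ctsb (3353 and 1948 CPM, -0.78) and Lgmn (1182 and 781 CPM, -0.60), and March8 (22.1 and 13.8 CPM, -0.68).

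Tumour classical monocytes (176 WT and 321 KO cells) resembled macrophages in direction. At least 1.5-fold higher were 18 of 21 class I genes (10.4% of all measured genes) and 0 were that much lower (9.26%). Their median was 0.84, with Erap1 lowest (0.19) and Tap1 highest at 116 and 294 CPM (1.34, 1.16 to 1.53). Of 10 measured class II genes 9 passed the line upward and 0 downward. The class II median was 0.94, with Ifi30 lowest (0.13) and Ciita highest at 62.8 and 177 CPM (1.496, 1.25 to 1.75). H2-K1 stood at 750 and 1137 CPM (0.60), H2-D1 at 1477 and 2178 CPM (0.56), B2m at 2147 and 2701 CPM (0.33) and Nlrc5 at 26.1 and 56.9 CPM (1.13). H2-Aa stood at 1007 and 2062 CPM (1.03), H2-Ab1 at 1032 and 2084 CPM (1.01), H2-Eb1 at 602 and 1277 CPM (1.08) and Cd74 at 2967 and 5777 CPM (0.96). The values depended on how monocytes were delimited: in clusters in place of gates the class I and class II medians were 0.54 and 1.65, and in a stricter gate, with 1 more own marker and at most 2 markers of other lineages, 0.80 and 0.47. T cell and NK cell markers summed to 13.8 and 3.55 CPM in WT, where Ncr1, Klre1, Klra8 and Bcl11b were at 0, and to 42.6 and 20.1 CPM in KO, and their part in the ratios was not tested.

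Non-classical monocytes of the tumour (139 and 135 cells) differed in class I more than in class II. At least 1.5-fold higher were 9 of 21 class I genes (9.31% of all measured genes) and 0 lower (11.8%), with a median of 0.56, B2m lowest (0.08) and H2-T24 highest (1.77). A single class II gene of 8, H2-DMa (0.72), was higher, and the class II median was 0.13 with Ifi30 lowest (-0.19). In clusters in place of gates that median was -0.65. H2-K1, H2-D1 and Nlrc5 had ratios of 0.34, 0.36 and 0.95. H2-Aa, H2-Ab1 and H2-Eb1 had ratios of 0.10, -0.05 and -0.07, Cd74 0.17 and Ciita 0.50.

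Tumour cDC2, the compared gate with the most class II in both libraries, had class II ratios near or below 0. In cDC2 (98 and 97 cells) 5 of 21 class I genes were at least 1.5-fold higher (9.83% of all measured genes) and 1 lower (11.3%), and the median was 0.41 with H2-Q6 lowest (-0.66) and Psme2 highest (0.94). Of 12 class II genes 0 were higher and 1 was lower, H2-Oa at 202 and 134 CPM (-0.59, -0.83 to -0.35), while H2-DMb1 was highest (0.03) and the median was -0.25. The main chains were slightly lower in KO. H2-Aa stood at 9840 and 8178 CPM (-0.27), H2-Ab1 at 9473 and 8085 CPM (-0.23) and H2-Eb1 at 8000 and 6234 CPM (-0.36). Cd74 stood at 19609 and 18451 CPM (-0.09) and Ciita at 571 and 472 CPM (-0.28), so all 5 lay below 0 by less than the 1.5-fold line. Ratios of B2m, H2-K1, H2-D1 and Nlrc5 were 0.09, -0.06, 0.10 and 0.79.

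Migratory dendritic cells (63 and 89 cells) had 7 of 20 class I genes higher (12% of all measured genes) and 0 lower (10.4%), and the median was 0.41 between Erap1 (-0.32) and Psmb10 (0.76). Of their 12 class II genes 2 were higher and 1 lower, and the median was 0.18 between H2-Eb2 (-0.60) and H2-DMb1 (0.77). B2m, H2-K1, H2-D1 and Nlrc5 had ratios of 0.17, 0.45, 0.39 and 0.64, and H2-Aa, H2-Ab1, H2-Eb1, Cd74 and Ciita 0.16, 0.27, 0.14, 0.27 and -0.22. Plasmacytoid dendritic cells (79 and 95 cells) had 2 of 21 class I genes higher (10.1%) and 0 lower (10.1%), and the median was 0.27 between H2-T24 (-0.33) and Nlrc5 (0.92). None of their 11 class II genes was 1.5-fold apart, and the median was -0.06 between Ciita (-0.46) and H2-Ob (0.35). In these cells B2m, H2-K1 and H2-D1 had ratios of 0.27, 0.23 and 0.35, and H2-Aa, H2-Ab1, H2-Eb1 and Cd74 -0.16, -0.32, -0.09 and -0.29. In both types class I lay above class II by median.

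Tumour B cells (121 and 69 cells) had 6 of 21 class I genes higher (9.4% of all measured genes) and 0 lower (22.3%), and the median was 0.56 between H2-Q6 (0.02) and H2-T24 (1.45), where the median of all genes was -0.16. Only Ifi30 (0.92) of their 12 class II genes was higher and 0 were lower, and the median was -0.02 with H2-Ob lowest (-0.23). B2m stood at 1253 and 1916 CPM (0.61, 0.48 to 0.75), H2-K1 at 1226 and 1614 CPM (0.40) and H2-D1 at 1275 and 1481 CPM (0.22). Nlrc5 had 9 and 14 UMIs (1.15, -0.16 to 2.54). H2-Aa, H2-Ab1, H2-Eb1, Cd74 and Ciita had ratios of -0.11, -0.05, 0.04, 0.02 and -0.22.

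Tumour neutrophils (761 and 95 cells) had the highest ratios of any gate, but most of their class II UMIs came from very few cells. All 20 measured class I genes were higher (33.9% of all measured genes) and 0 lower (14.4%), and the median was 2.10 between H2-D1 (1.01) and Psmb10 (3.38), where the median of all genes was 0.26. All 8 measured class II genes were higher, with a median of 2.78 between H2-Aa (2.38) and H2-DMb1 (3.83). H2-DMb1 had 12 and 22 UMIs and Ciita 10 and 15, each under the minimum of 20 in WT alone. Not measured were H2-DMb2 (5 and 1 UMIs), H2-Oa (7 and 1) and H2-Ob (9 and 2), so the count leaves out genes rare in KO. Of the 838 class II UMIs in KO neutrophils, 80.3% lay in 5 of 95 cells, while the top 38 of 761 WT cells held 27.3% of 1025. A UMI of Retnlg, a gene of mature neutrophils, was held by 415 and 34 cells. Their class II median was -0.17 over 5 measured genes (sums 369 and 357 CPM). In cells without a Retnlg UMI it was 3.32 over 8 genes (346 and 61 cells, sums 385 and 3536 CPM). The class I medians of the same subsets were 1.80 and 1.97, so class I stood apart in both. In clusters in place of gates the class II median was 0.48, and after thinning the class I median was 1.385. Markers of other cells differed in these libraries too: macrophage markers summed to 180 and 260 CPM (7 of 8 higher), classical monocyte markers to 594 and 1465 CPM, T cell markers to 42.6 and 143 CPM and NK cell markers to 9.54 and 94.2 CPM, while cDC2 markers were at 4.04 CPM in WT with all 7 at 0 in KO. Their part in the ratios was not tested. B2m stood at 1155 and 2439 CPM (1.08), H2-K1 at 454 and 1174 CPM (1.37), H2-D1 at 1121 and 2253 CPM (1.01) and Nlrc5 had 39 and 21 UMIs (2.07). H2-Ab1, H2-Eb1, Cd74 and Ciita had ratios of 2.49, 2.57, 2.85 and 3.54.

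Class I in tumour lymphocytes varied by type. In CD8 T cells (419 and 1145 cells) 0 of 21 class I genes were higher (6.91% of all measured genes) or lower (7.84%), with a median of 0.02 between H2-Q4 (-0.19) and Tap1 (0.19). NK cells (127 and 652 cells) had 1 of 20 higher, Psme2 (8.79%), and 0 lower (12.2%), with a median of 0.07 and H2-Q6 lowest (-0.22). Regulatory T cells (95 and 177 cells) had 2 of 21 higher (7.94%) and 0 lower (12.8%), and the median was 0.23 between H2-Q4 (-0.55) and Tapbpl (0.82). CD4 T cells outside the regulatory gate (69 and 129 cells) had 7 of 20 higher (20.9%) and 0 lower (13.7%), and the median was 0.43 between H2-M3 (-0.53) and Psmb10 (1.10). B2m ratios were 0.00 in CD8 T cells, 0.04 in NK cells, 0.11 in regulatory and 0.58 in other CD4 T cells. H2-K1 ratios in the same order were 0.02, 0.07, -0.05 and 0.37, H2-D1 ratios 0.08, 0.01, 0.02 and 0.31, and Nlrc5 ratios -0.12, -0.01, 0.23 and 0.03.

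Class II levels in these lymphocytes were low, at or below 668 CPM in sum, and free RNA in the droplets was not measured. Thinned to 1000 UMIs, 84.9% of WT and 79.0% of KO CD8 T cells, 77.4% and 78.5% of NK cells, and 72.0% and 55.0% of tumour neutrophils lacked a class II UMI, against 67.7% and 52.0% of regulatory T cells. Without thinning the shares were 18.4% and 11.3% of CD8 T cells, 24.4% and 20.4% of NK cells, 34.6% and 21.1% of neutrophils and 17.9% and 2.83% of regulatory T cells, so most cells of each held a class II UMI at full depth. The top 5% of NK cells held 49.4% (WT) and 42.0% (KO) of their class II UMIs, and the top 5% of CD8 T cells 23.3% and 20.9%. The class II median was 0.11 in CD8 T cells, with 1 of 10 genes higher (H2-Aa, 0.59) and 1 lower (H2-Ob, -1.34). Of all genes measured there, 6.91% were higher and 7.84% lower. In NK cells it was 0.03, with 0 of 8 higher (8.79%) or lower (12.2%), Ifi30 lowest (-0.48) and H2-DMa highest (0.46). In CD4 T cells 3 of 6 were higher (20.9% of all measured genes) and 1 lower (13.7%). Their median was 0.42 between H2-Eb1 (-0.66) and H2-DMa (0.89), and 2.51 with called doublets kept. Regulatory T cells had 3 of 8 higher (7.94%) and 1 lower (12.8%). The median was 0.27 between H2-Oa (-1.15) and H2-DMa (0.70), a median that was 1.34 after thinning and -0.02 in clusters. Their Cd74 stood at 283 CPM (223 UMIs) and 435 CPM (759 UMIs), a ratio of 0.62 (0.40 to 0.84). Cd74 made up 74.3% (69.0 to 79.2%) and 78.8% (76.1 to 81.4%) of the UMIs of Cd74, H2-Aa, H2-Ab1 and H2-Eb1 in regulatory T cells, against 45.8% and 42.8% in CD8 T cells, 44.3% and 46.0% in NK cells and 47.3% and 45.4% in macrophages. Regulatory T cells thus held Cd74 in another proportion to the class II chains than those cells did, in both libraries. In CD8 T cells H2-Ab1, H2-Eb1, Cd74 and Ciita had ratios of 0.55, 0.19, 0.29 and 0.29, and in regulatory T cells H2-Aa, H2-Ab1, H2-Eb1 and Ciita 0.51, -0.16, 0.66 and -0.41. In CD4 T cells H2-Aa, H2-Ab1 and Cd74 had ratios of 0.69, -0.15 and 0.63, and in NK cells H2-Aa, H2-Ab1, H2-Eb1 and Cd74 -0.39, 0.14, 0.05 and 0.01.

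Spleen classical monocytes (1096 and 624 cells) had smaller ratios than the tumour gate of that name. Of 21 class I genes 2 were at least 1.5-fold higher (6.84% of all measured genes) and 0 lower (4.64%), and the median was 0.17 between Erap1 (-0.10) and H2-Q7 (0.82). Of 11 class II genes 0 were higher or lower, with a median of 0.26 between H2-DMb2 (-0.33) and H2-Ob (0.54), and the summed class II level was 2082 and 2234 CPM. Within that sum Ifi30 was lower in KO, at 763 and 613 CPM (-0.32). Cd74, H2-Aa, H2-Ab1 and H2-Eb1 together stood at 1040 and 1300 CPM. H2-K1 stood at 648 and 769 CPM (0.25), H2-D1 at 1159 and 1218 CPM (0.07), B2m at 2241 and 2358 CPM (0.07) and Nlrc5 at 29.2 and 35.2 CPM (0.27). H2-Aa stood at 181 and 226 CPM (0.32), H2-Ab1 at 165 and 192 CPM (0.22), H2-Eb1 at 59.2 and 80.4 CPM (0.44), Cd74 at 635 and 801 CPM (0.34) and Ciita at 37.1 and 46.7 CPM (0.33). With 1 pool in each group, the difference between the organs was not tested.

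Spleen non-classical monocytes (1084 and 432 cells) had higher class II levels in KO beside class I ratios near 0. Of 21 class I genes 0 were higher (5.1% of all measured genes) or lower (5.4%), with a median of 0.12 between H2-Q4 (-0.18) and Psme2 (0.31). Among 12 class II genes 7 passed the 1.5-fold line upward and 0 downward, and the median was 0.60 between H2-Ob (-0.18) and H2-DMb2 (1.22), and the sum was 5281 and 7217 CPM. In clusters in place of gates the class II median was 0.36, under the 1.5-fold line. H2-Aa stood at 938 and 1313 CPM (0.48), H2-Ab1 at 723 and 1107 CPM (0.62), H2-Eb1 at 435 and 703 CPM (0.69, 0.61 to 0.77), Cd74 at 2689 and 3493 CPM (0.38) and Ciita at 50.1 and 80.9 CPM (0.69, 0.45 to 0.93). Ratios of B2m, H2-K1, H2-D1 and Nlrc5 were 0.04, 0.08, -0.04 and 0.11. Their median cell still had 1 class II UMI in both libraries after thinning to 1000, and 41.4% and 40.3% of cells had none. At full depth the top 5% of cells held 48.9% (WT) and 49.1% (KO) of the class II UMIs.

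In red pulp macrophages (156 and 138 cells) 1 class I gene was higher (9.41% of all measured genes), Psmb9 (0.61), and 1 lower (7.75%), H2-Q4 (-0.60), with a median of 0.15. Of 11 class II genes 3 were higher and 0 lower, and the median was 0.37 between Ifi30 (-0.26) and H2-Oa (1.21). B2m, H2-K1, H2-D1 and Nlrc5 had ratios of -0.03, 0.06, -0.01 and 0.58, and H2-Aa, H2-Ab1, H2-Eb1, Cd74 and Ciita 0.35, 0.55, 0.19, 0.32 and 0.90. Summed neutrophil markers in red pulp macrophages stood at 382 (WT) and 5994 CPM (KO). They stood at 587 and 2835 CPM in spleen classical monocytes and at 1020 and 2897 CPM in non-classical ones. Their part in the ratios was not tested. In spleen cDC2 (152 and 117 cells) 0 of 21 class I genes were higher (6.65%) or lower (7.93%), with a median of 0.06 between Tap2 (-0.24) and H2-Q6 (0.43). Of their 12 class II genes only H2-Eb2 (1.01) was higher and 0 were lower, and the median was 0.01 with Ifi30 lowest (-0.29) and sums of 34313 and 34431 CPM. Ratios of B2m, H2-K1, H2-D1 and Nlrc5 were 0.06, 0.14, -0.03 and -0.07, and H2-Aa, H2-Ab1, H2-Eb1, Cd74 and Ciita -0.07, 0.06, -0.06, 0.07 and -0.23. Spleen B cells (170 and 237 cells) had 1 class I gene higher (6.52%), Tap2 (0.73), and 1 lower (8.38%), Nlrc5 at 53.8 and 22.8 CPM (-1.24, -1.86 to -0.64), with a median of -0.04. None of their 12 class II genes was counted as 1.5-fold apart, with a median of -0.20 between Ciita at 364 and 243 CPM (-0.58) and H2-Eb2 (0.15). B2m, H2-K1 and H2-D1 had ratios of 0.01, -0.04 and -0.01, and H2-Aa, H2-Ab1, H2-Eb1 and Cd74 -0.19, -0.22, -0.36 and 0.01.

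Spleen neutrophils and NK cells, both low in class II, had lower summed class II levels in KO. Neutrophils (2183 and 1689 cells) had 0 of 21 class I genes higher (23% of all measured genes) and 2 lower (17.4%), and the median was -0.24 between H2-Q6 (-1.37) and Psme1 (0.18), with sums of 5401 and 4011 CPM. Of their 10 class II genes 0 were higher and 8 lower, and the median was -1.01 between H2-Aa at 56.6 and 25.8 CPM (-1.13) and H2-DMb2 (0.29). In the stricter gate the class II median was -0.15. Split by Ltf, a gene of immature neutrophils present in 79 WT and 511 KO cells, the class I and class II medians were -0.07 and -0.38 with it and 0.04 and -0.35 without it, so both subsets lay closer to 0 than all neutrophils together. At least 1.5-fold lower in class II were 2 of 7 genes with Ltf and 1 of 10 without it, and 1 and 0 were that much higher. The shares over all genes were not counted in these subsets, where the medians of all genes were 0.04 and -0.004. B2m, H2-K1, H2-D1 and Nlrc5 had ratios of -0.55, -0.29, -0.52 and -0.80, and H2-Ab1, H2-Eb1, Cd74 and Ciita -0.997, -1.09, -1.02 and -1.01. NK cells (1143 and 2339 cells) had 0 of 21 class I genes higher (3.65%) or lower (4.96%), with a median of 0.06 between H2-Q4 (-0.34) and H2-M3 (0.22). Of their 11 class II genes 0 were higher and 7 lower, and the median was -0.81 between Ciita (-1.27) and H2-Ob (0.04). Their class II sum was 282 and 162 CPM, and 85.7% and 87.1% of thinned cells had no class II UMI (52.1% and 58.5% without thinning). The top 57 of 1143 WT cells held 55.7% of the class II UMIs, against 36.1% in the top 117 of 2339 KO cells. The class II median of NK cells was -0.31 in the stricter gate, where 2 genes were measured, -0.37 with equal weight for each cell and -0.46 after thinning, all under the 1.5-fold line. Ratios of B2m, H2-K1, H2-D1 and Nlrc5 were 0.07, 0.10, 0.00 and -0.17, and H2-Aa, H2-Ab1, H2-Eb1 and Cd74 -1.08, -1.06, -0.90 and -0.81.

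**Figure D5:**
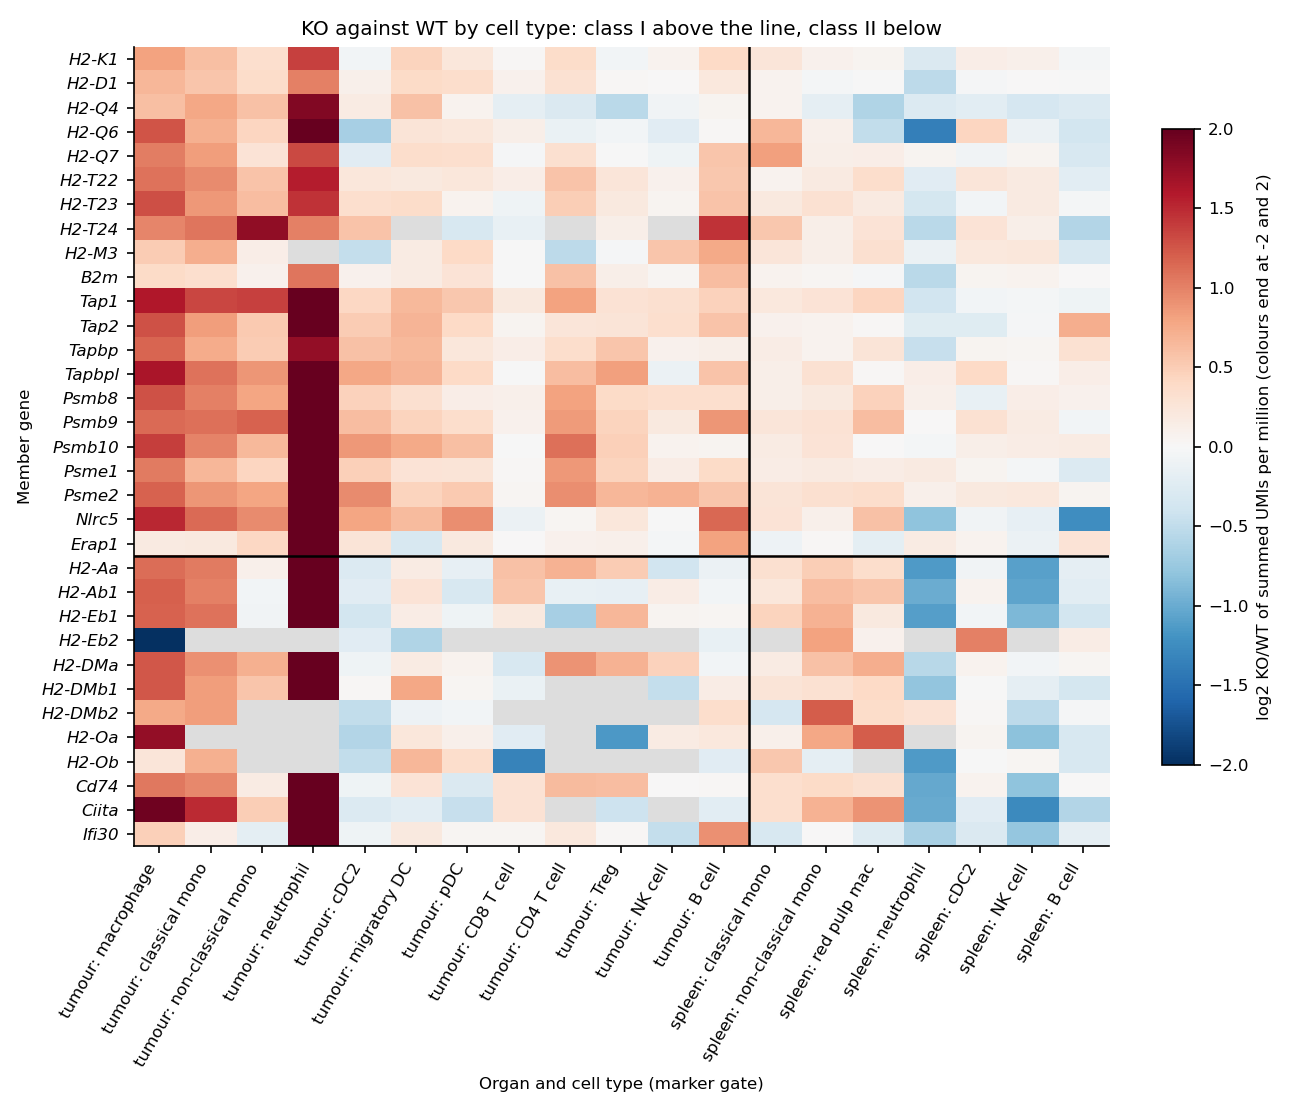
Log2 KO/WT ratio of each gene (rows, class I above the line) in each gated cell type (columns, tumour left of the line and spleen right); red is higher in KO, blue lower, grey not measured, and colours end at -2 and 2. Tumour macrophages, classical monocytes and neutrophils are red through both classes apart from H2-Eb2 in macrophages (-1.99), while the class II medians of cDC2 are -0.25 in tumour and 0.01 in spleen, with H2-Oa at -0.59 in tumour and H2-Eb2 at 1.01 in spleen.

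Setting tumour against spleen within a genotype compared cells of the same gate but of different sorts, CD45 alone against CD45 with CD11b. In WT classical monocytes 5 of 21 class I genes were at least 1.5-fold higher in the tumour (12.1% of all measured genes) and 1 lower (40.2%), with a median log2 tumour/spleen ratio of 0.21 between H2-T24 (-0.79) and H2-Q7 (1.70), where the median of all genes was -0.39. Of 11 class II genes 8 were higher and 0 lower, and the median was 0.93 between Ifi30 (-0.19) and H2-Eb1 at 59.2 CPM in spleen and 602 CPM in tumour (3.35, 3.23 to 3.47). In KO classical monocytes 15 of 21 class I genes were higher (11.7%) and 0 lower (39.6%), and the median was 0.91 with Psmb8 highest at 224 and 888 CPM (1.99). Of 11 class II genes 9 were higher, with a median of 1.92 between Ifi30 (0.25) and H2-Eb1 at 80.4 and 1277 CPM (3.99). Ciita stood at 37.1 CPM in spleen and 62.8 CPM in tumour for WT (0.76) and at 46.7 and 177 CPM for KO (1.92). The tumour gate thus held more class II in both genotypes, while B2m was close between organs (-0.06 in WT and 0.20 in KO).

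In cDC2 the class II medians between organs were smaller. In WT cDC2 8 of 21 class I genes were higher in the tumour (11.3% of all measured genes) and 2 lower (38.1%), with a median of 0.46 between Erap1 (-0.82) and Psmb8 (1.55). Of 12 class II genes 5 were higher and 1 lower, and the median was 0.47 between H2-Eb2 (-1.87) and H2-Eb1 (0.88). In KO cDC2 13 of 21 class I genes were higher (14.8%) and 1 lower (38.1%), and the median was 0.67 between Erap1 (-0.64) and Psmb8 (2.16), and of 12 class II genes 1 was higher and 3 lower (median 0.30, H2-Eb2 lowest at -3.10 and H2-DMb1 highest at 0.86). Psmb8 also had the highest class I ratio in non-classical monocytes, NK cells and B cells of both genotypes. The class I and class II medians were -0.27 and 0.77 in WT and 0.20 and 0.54 in KO non-classical monocytes, 0.29 and 0.52 in WT and 0.26 and 1.12 in KO NK cells, and -0.23 and 0.13 in WT and 0.40 and 0.43 in KO B cells. In neutrophils they were -0.60 and -0.08 in WT, with H2-Q4 the highest class I ratio (0.87), and 1.59 and 4.21 in KO, with H2-Q6 the highest (3.66).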

How the data were processed

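The values are UMI counts per gene and cell barcode as the authors deposited them, made with Cell Ranger 6.0.0 per the file headers; the submitters' processing notes name Cell Ranger 3.1, Seurat 3.1.4 and 3.1, and the builds mm10 and GRCm38. Per the labels' protocols, about 16000 cells were loaded per library on the 10x 3' v3.1 kit. The gene set and the marker and pathway lists were chosen with earlier results of these data known. Barcodes were kept with 200 or more genes, 500 or more UMIs and no more than 10% mitochondrial UMIs, which removed 543 to 1420 barcodes per library by the mitochondrial limit. Doublets were called by simulated doublets at 0.8% per 1000 cells (3.83% to 6.49% of cells) and removed. Total depth was 46499361 to 63560706 UMIs per library. Cell types were assigned by counts of fixed markers, and types with at least 50 cells in both libraries were compared. Counts were summed per type and library, scaled to CPM, and set against each other as a log2 ratio with an exact conditional binomial 95% interval; a count of 0 was set to the floor of 3. With 1 library per group there is no replicate, so no p-value was computed. Named were all measured genes of the set in tumour macrophages, and elsewhere the class medians, the lowest and highest gene, B2m, H2-K1, H2-D1, Nlrc5, H2-Aa, H2-Ab1, H2-Eb1, Cd74 and Ciita where measured. Clusters used the Leiden algorithm (leidenalg 0.10.2, resolution 1.5, 2000 variable genes, 30 components). Sums, ratios and intervals used Python 3.11.15, numpy 2.4.6, scipy 1.17.1 and pandas 2.3.3, and the comparison script was tested on simulated data. Alternatives changed the mitochondrial limit, doublet removal, depth, cell weights, scaling, UMI minimum and the way cells were named. The stricter gate with at most 2 markers of other lineages, the neutrophil and macrophage splits, the macrophage clusters and their reweighting were chosen after seeing the data. The values of 1 further pathway gene are not reported here.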

Additional observations from a re-analysis of the deposited data

Results flagged for a closer look

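Neutrophil class II ratios had opposite signs in the 2 organs. The median class II log2 KO/WT ratio was 2.78 in tumour neutrophils, with all 8 measured genes higher (33.9% of all measured genes). In spleen neutrophils it was -1.01, with 8 of 10 lower (17.4%). In tumour neutrophils H2-DMb1 and Ciita had only 12 and 10 UMIs in WT, and H2-DMb2, H2-Oa and H2-Ob were too rare to be measured. The difference between the organs was not tested, since each group is 1 library. In tumour cells with a Retnlg UMI the class II median was -0.17 over 5 measured genes, 1 higher and 1 lower. The log2 ratio of their class II sums was -0.05 (-0.52 to 0.39), an interval that spans both signs. In spleen cells the class II median was -0.38 with an Ltf UMI (2 of 7 genes lower) and -0.35 without one (1 of 10 lower). The shares over all genes were not counted in the Retnlg and Ltf subsets. In the tumour 5 of 95 KO cells held 80.3% of the class II UMIs.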

How the results depend on the processing

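The class I median in tumour macrophages stayed between 1.13 and 1.19 in every alternative run that did not reweight clusters. Reweighting the KO macrophage clusters, the smallest of 23 cells, to their WT shares gave 0.73 for class I and 0.93 for class II, against 1.17 and 1.21 at their own shares. The class II median there (1.15) was 1.18 with median-of-ratios scaling, 1.21 with called doublets kept, 1.08 with clusters in place of gates and 1.09 in a stricter gate (1 more own marker, at most 2 markers of other lineages), an alternative chosen after seeing the data. The class II share of both routes, 4.79 percentage points higher in KO macrophages, was 5.50 points higher after thinning, 5.68 with doublets kept, 3.86 in clusters and 2.73 in the stricter gate. In tumour classical monocytes 9 class I genes rather than 18 were at least 1.5-fold higher in clusters. Their class II median (0.94) was 0.99 with a minimum of 100 UMIs, 1.65 in clusters and 0.47 in the stricter gate, where 4 genes were higher. In spleen classical monocytes the class I count was 1 with a minimum of 100 UMIs or with doublets kept, and the class II count was 1 in clusters. The shares of all genes past the 1.5-fold line were not counted in these alternatives, so these counts have no background beside them. The cause of these shifts was not tested. Of 259 further medians 216 moved by less than the half-width of their median gene's interval and 43 by more. Medians of 10 lists, all under the 1.5-fold line as reported, changed sign in some alternative, among them in clusters class II in tumour non-classical monocytes (-0.65, past that line), CD8 T cells (-0.27) and regulatory T cells (-0.02). A gate with no marker of any other lineage left under 50 cells in each type and gave no value. No paired analysis was possible because each group is 1 library, and for the same reason no replicate could be left out. Depth limits the rare genes most: H2-Eb2, H2-Oa and H2-Ob had under 50 UMIs each per library in macrophages.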

Other observations

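A few gates held too few cells for a comparison. In the WT tumour 26 melanoma-gated cells carried 1184 CPM of class I and 81.2 CPM of class II, 6.41% class II, the lowest class I level of the gates with at least 20 cells. Type 1 conventional dendritic cells of the tumour had 48663 CPM of class II in WT (39 cells) and 44757 CPM in KO (72 cells), with H2-Ob at 183.5 and 113.6 CPM. Spleen plasma cells (24 and 59 cells) held Cd74 at 75.7% and 78.2% of the UMIs of Cd74, H2-Aa, H2-Ab1 and H2-Eb1, a share near that of tumour regulatory T cells, at summed class II levels of 1551 and 2103 CPM.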
